A study of Mus musculus with 12 samples.

Results

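The microRNAs mmu-miR-146a, mmu-miR-146b and mmu-miR-155, known from inflammatory signalling, were followed across all arrays of a study of endoplasmic reticulum (ER) stress in mouse embryonic fibroblasts. They are 3 of the 611 mouse miRNA names on the array and were matched by the name given to each probe. The 3 miRNAs were chosen from measured values of these same arrays, in which miR-146a and miR-146b had stood out as lower in tunicamycin-treated wild-type cells, and for their known link to NF-kB. Their levels and differences are therefore given as a description, with standard errors and without p-values of their own, and nothing is read from where they fall among the calls over all miRNAs.

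The cells were fibroblasts of the C57BL/6 background, either without ATF4 (labelled ATF4 KO, here KO) or wild type for it (ATF4 WT, here WT). ATF4 is a transcription factor whose translation increases when the ER stress kinase PERK is active. The 6 groups were KO cells left untreated, KO cells given 2 ug/mL tunicamycin for 12 h or for 24 h, and WT cells left untreated or given the same treatment for 12 h or 24 h. Tunicamycin blocks N-linked glycosylation and so causes proteins to misfold in the ER. Each group had 2 arrays. The labels do not say from how many embryos or cell lines the cultures came, so the spread between arrays may be technical, and the array measures no Atf4 mRNA that could check the genotype labels.

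The gene of miR-146a is a transcriptional target of NF-kB. Both miR-146 miRNAs repress the adaptor proteins IRAK1 and TRAF6, which act upstream of NF-kB in Toll-like receptor and interleukin-1 receptor signalling. For miR-146a this arrangement is known as a negative feedback in macrophages and other innate immune cells. miR-155 is cut from the non-coding transcript of its host gene Mir155hg, is induced in activated macrophages, B cells and T cells, and represses SOCS1 and the phosphatase SHIP1, which restrain cytokine and growth factor signalling. ER stress is itself known to activate NF-kB.

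The mature sequences show why the probes for both miR-146 miRNAs need to be read side by side, and why miR-155 belongs to a different target family. They are given 5′ to 3′ as RefSeq lists them for the 5p arm on build GRCm38.p6, with the seed (bases 2 to 8) in capitals. The array names carry no arm, and the 5p arm is the one these names stood for when the array was designed.
miR-146a: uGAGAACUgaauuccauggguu
miR-146b: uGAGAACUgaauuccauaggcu
miR-155: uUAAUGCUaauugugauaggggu
miR-146a lies at chr11:43374435-43374456 on the minus strand (gene Mir146), and its hairpin is in no other annotated gene. miR-146b lies at chr19:46342790-46342811 on the plus strand (Mir146b), within the span of the long non-coding RNA Gm36493. miR-155 lies at chr16:84714143-84714165 on the plus strand (Mir155), within the span of its host transcript Mir155hg. miR-146a and miR-146b are both 22 bases long, share the seed GAGAACU and are identical at 20 positions. They differ by G18A and U21C, counted from the 5′ end with the base of miR-146a first. No other mature miRNA of the RefSeq table had that seed, and none but miR-155 had the seed UAAUGCU. Of the opposite arms only miR-146b* was on the array, and it was well above background on 0 of 12 arrays.

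The level of a miRNA is given as its summed probe signal in percent of the 75th percentile of its array, taken over the 82 miRNAs that every one of the 12 arrays measured well above background. Values below the lowest level well above background on any array, 1.56 percent, were raised to that floor before logarithms were taken. Between 92 and 164 mouse miRNAs per array were well above background, and the 75th percentile ran from 203.5 to 791.2 intensity units. The 4 untreated arrays shared a slide and the 8 tunicamycin arrays shared a second one, and the effects of slide and treatment cannot be told apart. KO and WT arrays of each replicate number were scanned on the same date but lay in different rows of the slide, so row and genotype cannot be told apart. The pooled SD of log2 levels over the 145 tested miRNAs was 0.166 in untreated KO, 1.21 in KO at 12 h and 1.06 in KO at 24 h, against 0.192, 1.38 and 0.563 in WT. A standard error below pools all 6 groups, so in untreated cells it mostly reflects the tunicamycin arrays. Where both arrays of a group were at the floor, as in some groups of miR-146a and miR-146b, their gap is 0 by construction. Such groups add no spread to the standard errors and calls of these miRNAs. Of 12 miRNAs listed as fibroblast markers, 11 were well above background on at least 1 array and 8 on all arrays; miR-145 was on none. The summed level of that list was 3833 and 3870 percent in untreated KO, 3303 and 3455 at 12 h and 2891 and 3952 at 24 h, against 4951 and 4964 in untreated WT, 2364 and 3093 at 12 h and 3041 and 3630 at 24 h. In WT cells it was thus lower with tunicamycin, as the miR-146 miRNAs were. It was also lower in KO cells at 12 h, where the summed probe signal of miR-146b was higher. Much of the sum was miR-21, at 1501 to 3713 percent. Of 7 leukocyte and red cell markers, among them miR-142-3p, miR-150 and miR-223, 0 were well above background on any array, and their summed level was 0.250 to 2.18 percent on KO arrays and 0.357 to 1.50 percent on WT arrays. Of the other lists, 0 of 7 epithelial and 0 of 4 neural miRNAs were well above background on any array, while 1 of 4 muscle miRNAs (miR-206, on 2 arrays), 1 of 6 pluripotent ones (miR-294, on 1 array) and 1 of 2 endothelial ones (miR-126-3p, on 1 array) were on some. The summed level was at most 1.51 percent for the epithelial, 3.03 for the neural, 5.21 for the muscle and 19.1 for the pluripotent list. The pluripotent sum was 1.37 and 5.06 percent in untreated KO, 7.45 and 19.1 at 12 h and 13.7 and 14.8 at 24 h, against 4.09 and 5.01, 6.80 and 12.5, and 5.36 and 8.42 in WT. The endothelial sum was 1.88 and 2.16 percent in untreated KO, 2.98 and 3.53 at 12 h and 0.552 and 2.14 at 24 h, against 2.89 and 3.43 in untreated WT, 0 and 0.682 at 12 h and 0.457 and 0.568 at 24 h. Like miR-146b it was lower in untreated KO than WT and higher at 12 h, but these values are close to background. The part of these miRNAs, and of the fibroblast list, in the results below was not tested. In such RNA from whole cultures, fewer cells with a miRNA and less of it per cell cannot be told apart.

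The clearest pattern was that of miR-155, whose brighter probe was dim in every KO group and bright in every WT group, whatever the treatment. Its dimmer probe was well above background on 4 of the 12 arrays. At 24 h, before scaling, that dimmer probe read 6.93 units on WT replicate 1 and 7.15 units on KO replicate 2. The deposited total gene signal gave KO above WT at 24 h (0.83 on the log2 scale). Normexp background correction gave a difference of 0.12 in untreated cells. In untreated cells the level of miR-155 was 3.51 and 3.46 percent on the KO arrays, against 21.6 and 23.2 percent on the WT arrays. At 12 h of tunicamycin it was 3.23 and 3.45 percent in KO cells and 21.7 and 14.9 percent in WT cells. At 24 h it was 4.05 and 6.41 percent in KO cells and 18.0 and 24.1 percent in WT cells. The highest of the 6 KO arrays thus lay below the lowest of the 6 WT arrays. miR-155 was well above background on all 6 WT arrays and on 4 of 6 KO arrays, the exceptions being 12 h replicate 2 and 24 h replicate 1, where 10 percent of the spots of its brighter probe carried the flag. The KO minus WT difference was -2.68 ± 0.27 (log2, standard error, n = 2 per group) in untreated cells, -2.43 ± 0.27 at 12 h and -2.03 ± 0.27 at 24 h. Within scan dates it was -2.62 and -2.74 in untreated cells, -2.75 and -2.11 at 12 h, and -2.15 and -1.91 at 24 h.

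**Figure D1:**
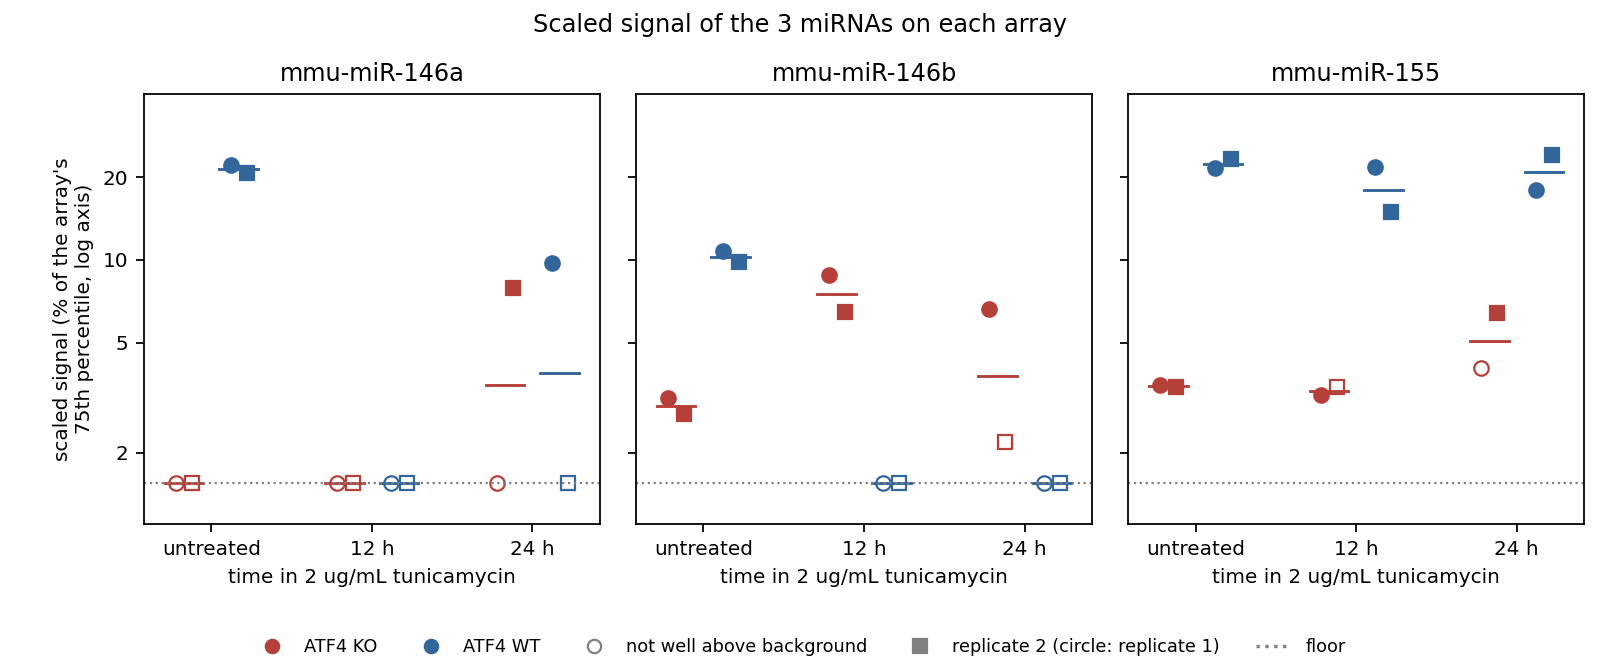
Scaled signal of miR-146a, miR-146b and miR-155 (percent of the array's 75th percentile, log axis) against time in tunicamycin, with KO left of WT. Each point is 1 array, open points are arrays where the miRNA was not well above background, short lines are means of log2 levels, and the dotted line is the floor of 1.56 percent. All KO points of miR-155 lie below all of its WT points, and miR-146b is at the floor on all 4 tunicamycin WT arrays.

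miR-155 differed little between tunicamycin-treated and untreated cells of either genotype. Against untreated cells of the same genotype it differed by -0.06 ± 0.27 at 12 h and 0.55 ± 0.27 at 24 h in KO cells, and by -0.32 ± 0.27 and -0.11 ± 0.27 in WT cells. The KO response minus the WT response was 0.25 ± 0.38 at 12 h and 0.65 ± 0.38 at 24 h. Ordered by level, the groups were untreated WT, WT at 24 h, WT at 12 h, KO at 24 h, untreated KO and KO at 12 h. The 3 WT groups overlapped their neighbours in that order. Between the lowest WT and the highest KO group there was a gap of 1.82 between mean log2 levels, and the 3 KO groups followed each other at 0.55 and 0.06, their arrays not overlapping although 3.45 percent at 12 h lay beside 3.46 percent in untreated cells. The difference of KO cells at 24 h from untreated ones was 0.21 for replicate 1 and 0.89 for replicate 2, the array with the 6.41 percent, and over 17 other ways of processing their mean ran from -0.48 to 2.22.

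From its probes, miR-146b showed a genotype difference that had opposite signs without and with tunicamycin, while the deposited table and normexp gave 0.12 and 0.54 in untreated cells and other processing gave from -0.61 (normexp) to 5.03 at 24 h. In untreated cells it was measured at 3.16 and 2.76 percent on the KO arrays, against 10.8 and 9.80 percent on the WT arrays, all 4 well above background. After 12 h of tunicamycin it was at 8.81 and 6.45 percent in KO cells, well above background on both arrays, while the WT arrays read -0.157 and -0.327 percent, which is background. The 2 genotypes did not overlap at either point, and their order was turned round. At 24 h it was at 6.63 percent on the first KO array and 2.18 percent on the second, where it was not well above background, against -0.0686 and -1.35 percent on the WT arrays.

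On the log2 scale with the floor, miR-146b in KO minus WT was -1.80 ± 0.45 in untreated cells, 2.28 ± 0.45 at 12 h and 1.29 ± 0.45 at 24 h. Within scan dates these differences were -1.77 and -1.83, then 2.50 and 2.05, then 2.09 and 0.48. With WT below background at 12 h, the level in KO cells was at least 2.75-fold higher (mean log2 level -3.73 in KO and -6.01, the floor, in WT). Such a bound, here and below, sets the bright group against the lowest level that was well above background on each dim array. That lowest level is no strict detection limit. On KO replicate 1 at 24 h it was 5.45 percent, yet miR-148a at 7.24 percent was not well above background there. The bound thus holds for the measured levels, not for what a dim array could have missed. It does not include the standard error, and it holds for the processing described above only. After normexp the 12 h difference was 0.36. At 24 h no such bound is given, because the mean of these lowest levels on both WT arrays, 6.41 and 3.35 percent, was above the mean level in KO cells.

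Seen as responses to tunicamycin, miR-146b fell below background in WT cells and did not do so in KO cells at 12 h. In WT cells the level was at least 3.75-fold lower at 12 h and at least 2.22-fold lower at 24 h. The log2 difference with the floor was -2.72 ± 0.45 at both times, because all 4 arrays were at the floor. After normexp the WT difference was -0.37 at 12 h and 0.69 at 24 h. Without spots of outlying local background, normexp gave -0.47 and 0.000605. In KO cells the level differed from untreated cells by 1.35 ± 0.45 at 12 h, with both treated arrays above both untreated arrays, but the sign was the other in the deposited table, with the total gene signal and after normexp (lowest value -0.72). At 24 h the difference was 0.36 ± 0.45 and the arrays overlapped. The KO response minus the WT response was 4.08 ± 0.64 at 12 h and 3.09 ± 0.64 at 24 h. The order of the groups by level was untreated WT, KO at 12 h, KO at 24 h, untreated KO, and both WT tunicamycin groups at the floor. KO at 24 h overlapped KO at 12 h and untreated KO, while untreated KO did not overlap the WT groups at the floor.

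miR-146a, the paralog with the same seed, followed a different course. It was brightest in untreated WT cells, at 22.1 and 20.7 percent, with 0.205 and 0.0101 percent on the untreated KO arrays. At 12 h it was at background in both genotypes, with 0.567 and 0.254 percent in KO cells and 0.345 and -0.237 percent in WT cells. At 24 h it was well above background on 1 array of each genotype, at 7.91 percent in KO replicate 2 and 9.78 percent in WT replicate 1, while KO replicate 1 read 0.161 percent and WT replicate 2 read -0.175 percent. The replicates at 24 h thus disagreed in both genotypes about whether miR-146a could be detected, and the array with the signal was a different replicate number, and so a different scan date, in each.

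In untreated cells miR-146a was at least 13.7-fold lower in KO than in WT, with mean log2 levels of -6.01, the floor, and -2.22. The fitted difference was -3.78 ± 0.94, and 0.01 after normexp. In WT cells miR-146a was at least 7.81-fold lower at 12 h of tunicamycin than in untreated cells. The fitted difference was again -3.78 ± 0.94, since the same 2 untreated arrays were set against the floor, and -0.77 after normexp. At 24 h the WT difference was -2.46 ± 0.94, but it was -1.18 for replicate 1 and -3.74 for replicate 2. In KO cells no change can be read at 12 h, where miR-146a was at background before and after, and at 24 h the difference of 1.17 ± 0.94 rests on replicate 2 alone and becomes 0 without it. KO minus WT was 0 at 12 h, with both groups at the floor, and -0.15 ± 0.94 at 24 h, with -2.65 in replicate 1 and 2.35 in replicate 2. The KO response minus the WT response was 3.78 ± 1.32 at 12 h and 3.63 ± 1.32 at 24 h, but -0.0092 and -0.68 after normexp. Since miR-146a was already at background in untreated KO cells, these last values mostly repeat the untreated genotype difference with its sign turned. Untreated WT stood apart from every other group, and the other 5 groups were not separated from their neighbours in the order of levels.

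**Figure D2:**
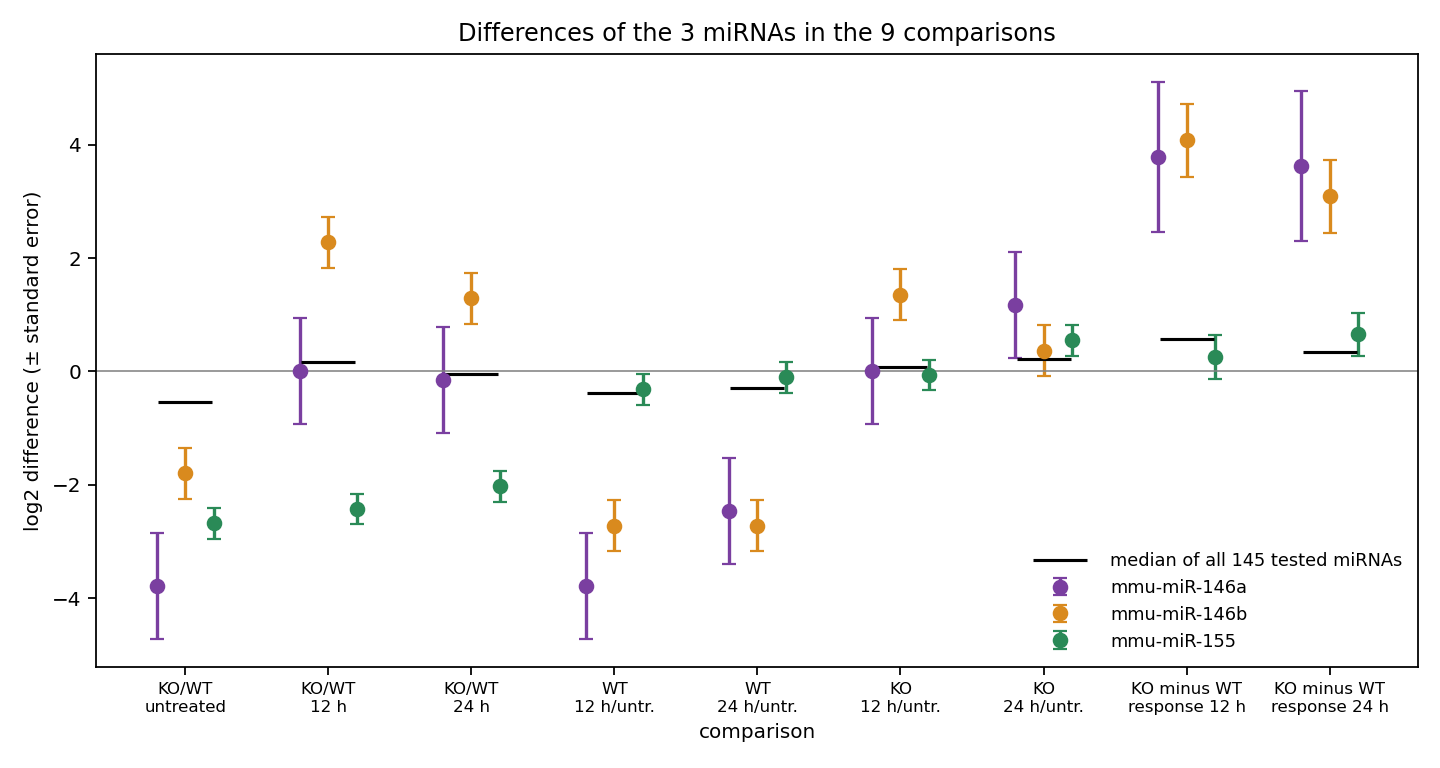
Log2 difference of miR-146a, miR-146b and miR-155 in the 9 comparisons, KO over WT, tunicamycin over untreated, and KO response minus WT response. Points are the fitted differences, bars are ± 1 standard error, and black dashes are the medians of all 145 tested miRNAs. The miR-155 points lie near -2 or below in each KO over WT comparison, while those of miR-146b change from -1.80 in untreated cells to 2.28 at 12 h.

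The 2 probes of each miRNA could be read separately, in unscaled intensity units. Each miRNA had a brighter and a dimmer probe with 10 spots each, and the dimmer one carried 15.0 to 18.6 percent of the brighter signal for miR-146a, 3.90 to 17.2 percent for miR-146b and 15.5 to 28.7 percent for miR-155, over arrays where the brighter probe was well above background. Both probes of miR-146a were well above background on the 2 untreated WT arrays, where the brighter one read 108 and 97.2 units, and only the brighter one was on the 2 arrays at 24 h, at 39.0 units in KO and 24.3 units in WT. The brighter probe of miR-146b read 19.1 and 20.8 units in untreated KO cells and 53.4 and 48.6 units in untreated WT cells, then 39.8 and 25.1 units in KO and 0.591 and 1.12 units in WT at 12 h. These signals are low. At 12 h the SD over the 10 spots was 3.18 and 2.64 units on the KO arrays and 1.89 and 1.12 units on the WT arrays. This is a spread within an array and does not cover differences in background between arrays. The 20.8 units of untreated KO replicate 2 leave out 2 outlier spots. With them the mean was 89.4 units, above both untreated WT arrays. The brighter probe of miR-155 read 20.6 and 23.3 units in untreated KO cells and 104 and 106 units in untreated WT cells. Taken alone, the brighter probes gave KO minus WT differences of -2.66, -2.47 and -2.04 for miR-155 without tunicamycin, at 12 h and at 24 h, and of -1.76, 2.13 and 1.32 for miR-146b. The dimmer probe of miR-155 gave -1.31, -0.72 and -0.87. For miR-146b the dimmer probe was well above background on 0 arrays and gave 0 each time, at the floor, so the miR-146b differences rest on the brighter probe.

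**Figure D3:**
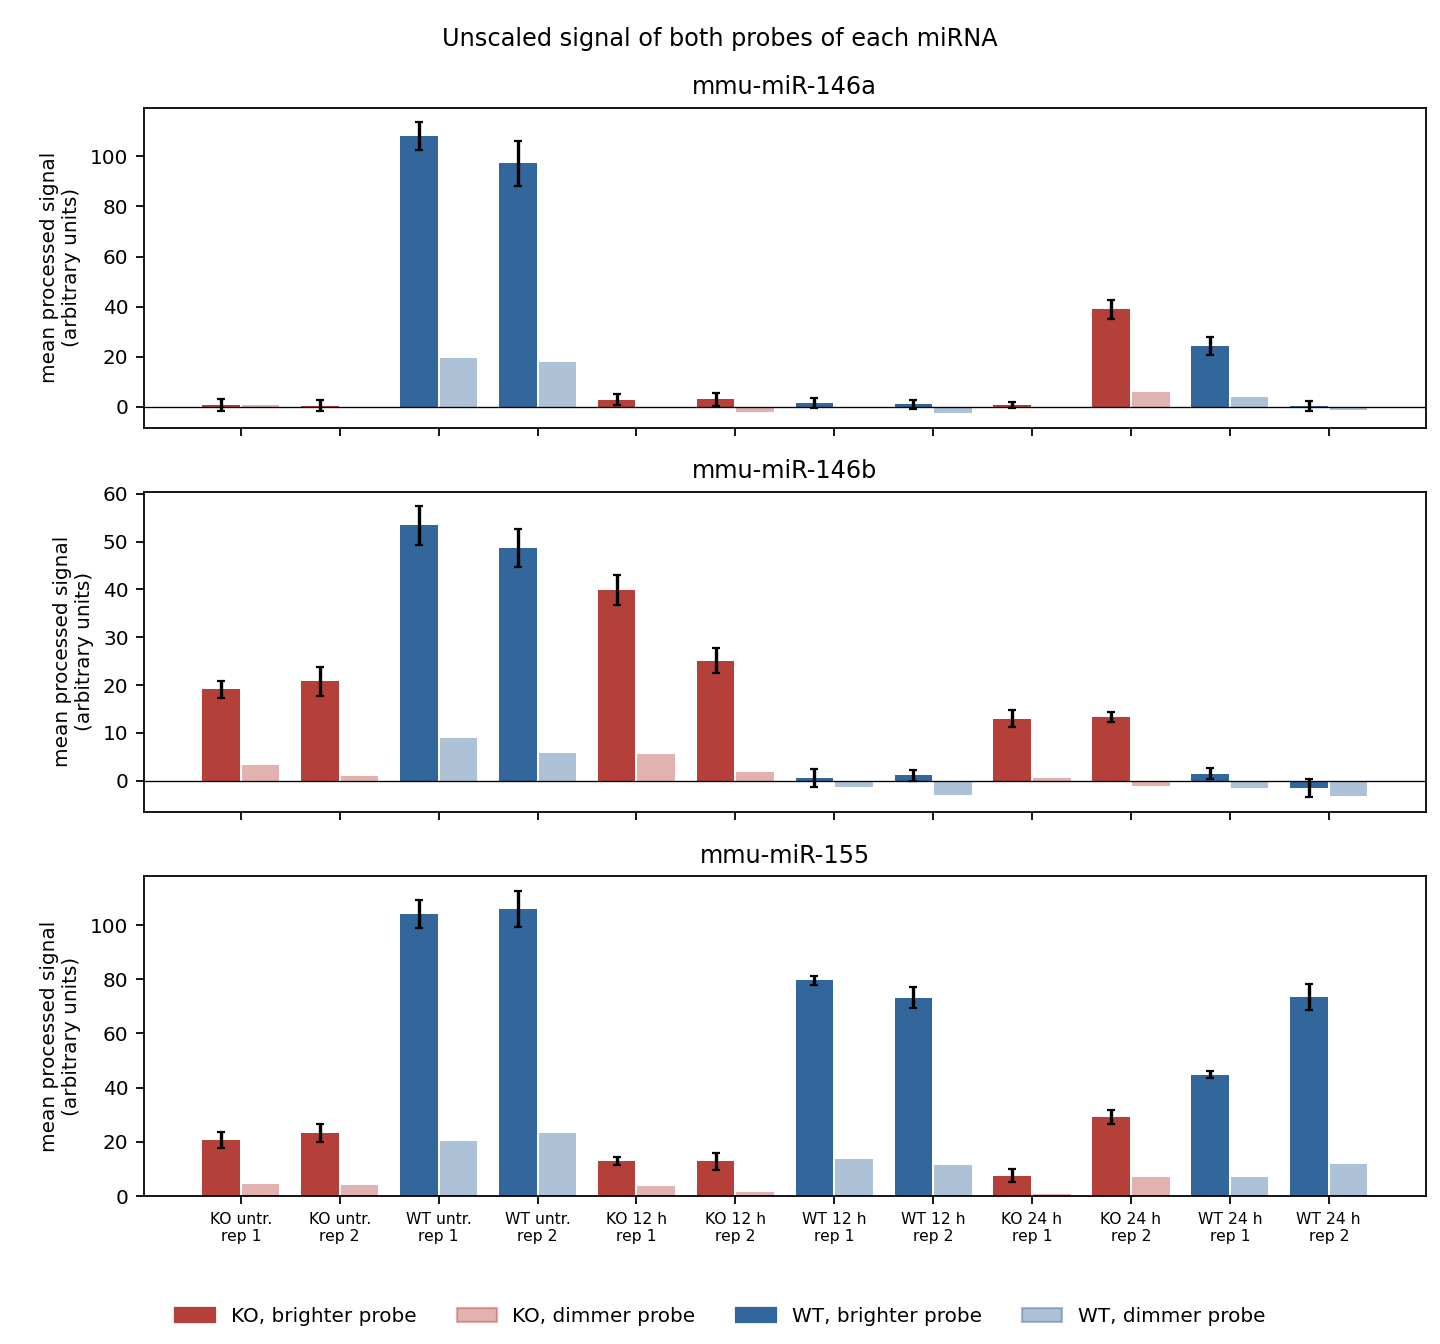
Mean processed signal (arbitrary units, not scaled between arrays) of both probes of miR-146a, miR-146b and miR-155 on the 12 arrays, KO left of WT at each time. Dark bars are the brighter probe with the SD over its spots, and pale bars are the dimmer probe. At 12 h the brighter miR-146b probe read 39.8 and 25.1 units on the KO arrays and 0.591 and 1.12 units on the WT arrays, while the miR-146a probes were near 0 on all 4.

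On some arrays the 2 miR-146 probe sets read differently in spite of the 20 shared bases of the paralogs. On the KO arrays at 12 h the brighter miR-146b probe read 39.8 and 25.1 units where the brighter miR-146a probe read 2.97 and 2.98 units. On WT replicate 1 at 24 h the reverse held, with 24.3 units for miR-146a and 1.42 units for miR-146b. Both were bright on the untreated WT arrays, at 108 and 97.2 units for miR-146a and 53.4 and 48.6 units for miR-146b. Whether either probe set also picks up the other paralog was not tested. Over the 12 arrays the log2 levels of the paralogs had a Pearson correlation of 0.33 (Spearman 0.35), those of miR-146a and miR-155 one of 0.52 (0.45), and those of miR-146b and miR-155 one of -0.27 (-0.27). The 12 points share 6 groups, and many are at the floor, so these values describe the arrays only.

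One column of the deposited files did not follow the probes for miR-146b and miR-155. The total gene signal, the per-miRNA summary of the authors' software, equalled the sum of that miRNA's 2 probe totals within 5 percent on the 6 WT arrays for miR-155, but on the 6 KO arrays it was 2.07 to 8.56 times as high. For miR-146b it was higher than the probe sum on 7 of the 8 arrays where the software detected it, by up to 10.6 times, and on all 6 KO arrays. In untreated KO cells, for example, the total gene signal of miR-146b was 68.2 and 78.0 units against probe sums of 14.9 and 14.8 units. Over all detected miRNAs the 2 quantities agreed within 5 percent for 58.7 to 69.6 percent per array. Why they part was not tested.

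The deposited value table is the log2 of this total gene signal, so it gives other answers. From the table, KO minus WT was 0.12 for miR-146b and -1.21 for miR-155 in untreated cells, 4.10 for miR-146b and -0.39 for miR-155 at 12 h, and 0.89 for miR-155 at 24 h. The higher level of miR-146b in KO cells at 12 h and the lower level of miR-155 in KO cells at 12 h kept their direction in all 18 alternative ways of processing that keep every array. The lower miR-155 at 24 h kept it in 16, the exceptions being the total gene signal, scaled or as deposited. The lower miR-155 in untreated KO cells kept it in 17 and the lower miR-146b in 16; a model-based background correction (normexp) turned both round, and the deposited table turned miR-146b. Run without spots of outlying local background, the same correction gave -1.09 for miR-155 and -0.68 for miR-146b. The 18 include fits with blocks, without the filter and of the compared groups alone. These leave each difference unchanged, so they could not turn a sign and add nothing to these counts.

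**Figure D4:**
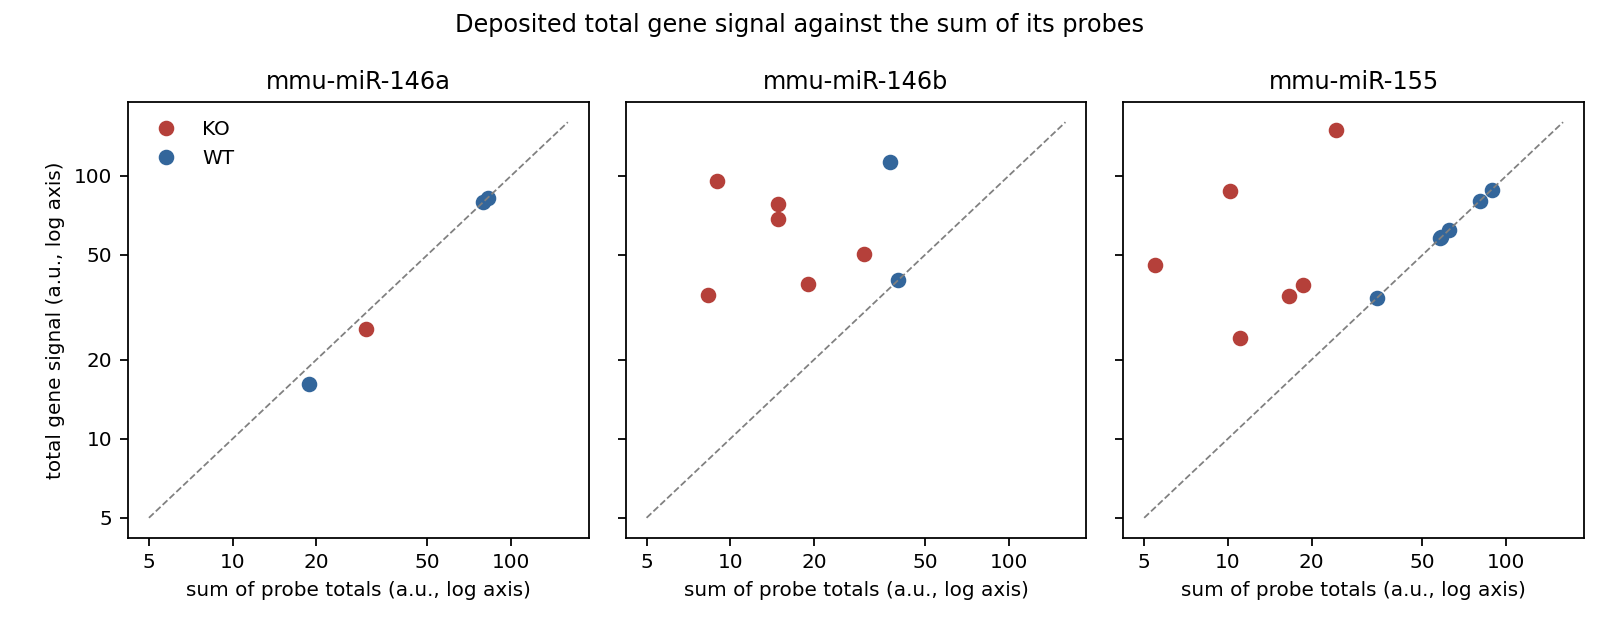
Total gene signal against the sum of probe totals for miR-146a, miR-146b and miR-155 (arbitrary units, both axes log), 1 point per array where the software detected the miRNA, KO in red and WT in blue, with the line of equality dashed. For miR-155 the 6 WT points lie on the line and the 6 KO points lie 2.07 to 8.56 times above it.

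The members were also read against all tested miRNAs. A miRNA was called where limma's p, adjusted by Benjamini-Hochberg over the 145 miRNAs, was below 0.05. In untreated KO against WT all 3 members were called lower, with 26.2 percent of the 145 called in all, 21.4 percent lower and 4.83 percent higher. At 12 h miR-155 was called lower and miR-146b higher in KO, with 24.1 percent called, 9.66 percent lower and 14.5 percent higher. At 24 h miR-155 alone was called, lower, with 14.5 percent called, 6.9 percent lower and 7.59 percent higher. In WT cells miR-146a and miR-146b were called lower at 12 h, where 26.9 percent were called and 26.2 percent lower, and miR-146b was called lower at 24 h, where 12.4 percent were called, all of them lower. In KO cells limma called 0 of the 3 at 12 h and 0 at 24 h (1 and 0 at an unadjusted p below 0.05, beside 21 and 25 of all 145), with 0.69 percent of all miRNAs called at each time. The responses of KO and WT cells were called different for miR-146b at both times, with 17.9 percent of all miRNAs called at 12 h, 17.2 percent higher in KO, and 6.21 percent at 24 h, 5.52 percent higher. The members were chosen from these contrasts, so nothing is read from their count.

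The median of the 3 members was -2.68 in untreated KO against WT, beside -0.55 over all 145 miRNAs. It was 0 beside 0.17 at 12 h and -0.15 beside -0.04 at 24 h, since the members then pointed in different directions. In WT cells it was -2.72 beside -0.38 at 12 h and -2.46 beside -0.30 at 24 h, and in KO cells 0 beside 0.08 and 0.55 beside 0.22. For the KO response minus the WT response it was 3.78 beside 0.56 at 12 h and 3.09 beside 0.35 at 24 h. The overall median itself depended on the scaling: for untreated KO against WT it was -0.22 with median scaling, -0.10 with quantile normalization and 0.62 after normexp. Counts of calls depended on single arrays as well: in untreated KO against WT the 38 calls became 9 without any 1 of the 4 untreated arrays and 68 without either KO array at 24 h.

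A list of 33 other miRNAs linked to NF-kB or to immune cells was set beside the members. Of these, 32 were on the array and 18 were bright enough to be tested. Among the others, the immune-cell miRNAs miR-142-3p, miR-142-5p, miR-150 and miR-223, the inflammation-induced miR-132, miR-147 and miR-212, and miR-9 and miR-187 were well above background on 0 of 12 arrays. In untreated KO against WT, 5 of 18 were called lower and 2 higher, beside 21.4 and 4.83 percent of all 145. The list median was -0.55 beside -0.55 over all miRNAs. miR-222, which together with miR-221 represses the cell cycle inhibitor p27, was at 7.08 and 4.96 percent in KO cells and 30.3 and 24.3 percent in WT cells (-2.20 ± 0.44, limma adjusted p = 0.0153). miR-29b, a repressor of collagen genes, was at 92.6 and 88.7 percent in KO and 233 and 232 percent in WT (-1.36 ± 0.28, adjusted p = 0.0153), and miR-31 at 27.9 and 28.3 percent in KO and 53.3 and 49.1 percent in WT (-0.86 ± 0.17, adjusted p = 0.0127). In the other direction, miR-199a-5p, made with miR-214 from the Dnm3os transcript, was at 106 and 99.8 percent in KO and 19.6 and 18.6 percent in WT (2.43 ± 0.37, adjusted p = 0.00442), and miR-199a-3p of the same hairpins was also higher (1.20 ± 0.35, adjusted p = 0.0431).

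Several of these genotype differences were also found under tunicamycin. The list median at 12 h was 0.21 beside 0.17. Of the 18, 4 were called lower in KO and 4 higher, beside 9.66 and 14.5 percent of all 145. They included miR-222 (-2.08 ± 0.44, adjusted p = 0.0158), miR-221 (-1.12 ± 0.22, adjusted p = 0.0125), miR-29b (-1.02 ± 0.28, adjusted p = 0.0388), miR-199a-5p (2.62 ± 0.37, adjusted p = 0.00466), miR-199a-3p (1.91 ± 0.35, adjusted p = 0.0103) and miR-322, the mouse counterpart of human miR-424 (1.75 ± 0.29, adjusted p = 0.0063). At 24 h, 4 of 18 were called lower and 2 higher, beside 6.9 and 7.59 percent of all 145. The list median was -0.05 beside -0.04. miR-222 was at 2.34 and 0.886 percent in KO cells, not well above background, and at 13.5 and 7.39 percent in WT cells, at least 2.73-fold lower in KO (adjusted p = 0.0145). miR-221 (-1.04 ± 0.22, adjusted p = 0.0226), miR-31 (-0.95 ± 0.17, adjusted p = 0.0133), miR-199a-5p (2.07 ± 0.37, adjusted p = 0.0133) and miR-322 (1.14 ± 0.29, adjusted p = 0.0381) completed the named miRNAs at that time.

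In WT cells 9 of 18 were called lower at 12 h of tunicamycin, beside 26.2 percent of all 145, and 0 higher. The list median was -0.78 beside -0.38, and 10 of 18 had an unadjusted limma p below 0.05, beside 54 of all 145. miR-322 was at 6.60 and 9.18 percent at 12 h and 29.6 and 33.5 percent in untreated WT cells (-2.01 ± 0.29, adjusted p = 0.00314), and miR-222 (-1.63 ± 0.44, adjusted p = 0.0364) and miR-199a-3p (-1.27 ± 0.35, adjusted p = 0.038) were also lower. At 24 h the list median was -0.64 beside -0.30, and 11 of 18 had an unadjusted p below 0.05, beside 44 of 145. After adjustment 3 of 18 were called lower, beside 12.4 percent of all 145. They were miR-322 (-1.73 ± 0.29, adjusted p = 0.00763), miR-16, which shares its seed family (-0.72 ± 0.14, adjusted p = 0.0126), and miR-30b, which was not well above background at 24 h and at least 1.21-fold lower (adjusted p = 0.038). In KO cells limma called 0 of 18 at either time, beside 0.69 percent of all 145. At an unadjusted p below 0.05 there were 3 and 4, beside 21 and 25 of 145. The smallest p values there belonged to miR-222 (-1.52 ± 0.44, adjusted p = 0.25) and miR-221 (-0.59 ± 0.22, adjusted p = 0.326) at 12 h and to miR-199a-5p (-1.43 ± 0.37, adjusted p = 0.108) and miR-222 (-1.63 ± 0.44, adjusted p = 0.108) at 24 h.

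For the KO response minus the WT response, the list median at 12 h was 0.52 beside 0.56. This difference was called higher for 4 of 18, beside 17.2 percent of all 145. The largest belonged to miR-322 (2.12 ± 0.41, adjusted p = 0.0151), let-7i, known in human cells to repress Toll-like receptor 4 (1.58 ± 0.41, adjusted p = 0.0417), and miR-16 (0.99 ± 0.19, adjusted p = 0.0157). At 24 h limma called 0 of 18, beside 6.21 percent of all 145 (6 of 18 at an unadjusted p below 0.05, beside 30 of 145). The smallest p values belonged to miR-322 (1.51 ± 0.41, adjusted p = 0.0747) and miR-125a-5p (0.61 ± 0.19, adjusted p = 0.114). Of the 25 calls named for this list, 4 remained when any 1 array was left out: miR-199a-5p in untreated KO against WT and at 12 h, miR-322 at 12 h in KO against WT, and miR-322 at 12 h in WT. The other 21 were lost without at least 1 array. Those of miR-222, miR-29b and miR-31 in untreated cells were lost without any 1 of the 4 untreated arrays. After normexp, differences of the other sign were 0.02 for miR-222 and 0.01 for miR-31 in untreated KO against WT, -0.27 for miR-322 in KO against WT at 24 h, 0.20 for miR-322 and 0.97 for miR-30b in WT at 24 h, and -0.70 for the 24 h response difference of miR-322, which was not called.

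Finally, the miRNAs whose log2 level ran most like that of each member over the 12 arrays were listed, with Pearson's r as the measure and no test, since the arrays share groups, slides and scaling. For miR-155 they were miR-31 (r = 0.99), miR-29c (0.93) and miR-29b (0.93). miR-31 was at 25.6 to 32.5 percent on the KO arrays and 45.4 to 60.7 percent on the WT arrays, which did not overlap. For miR-146b they were miR-26b (0.95), miR-148a (0.92) and let-7i (0.91). miR-26b was at 16.6 and 16.4 percent in untreated KO and 26.8 and 25.4 percent in untreated WT, then at 23.5 and 20.8 percent in KO and 15.0 and 12.3 percent in WT at 12 h. Its genotype difference, like that of miR-146b, thus had opposite signs without and with tunicamycin. For miR-146a they were miR-125a-5p (0.94), miR-500 (0.83) and miR-195 (0.80), of which miR-195 was well above background on the 2 untreated WT arrays alone, at 5.89 and 6.08 percent. With median scaling miR-31, miR-29b and miR-29c were again the 3 nearest to miR-155 and miR-148a, let-7i and miR-26b the 3 nearest to miR-146b, and miR-125a-5p was nearest to miR-146a at 0.81. Without scaling, miR-7a, miR-210 and miR-18a were nearest to miR-155, let-7i and miR-148a were still among those of miR-146b, and miR-195 was nearest to miR-146a, with miR-125a-5p not among its 3. After normexp miR-31 stayed for miR-155 and miR-26b and miR-148a for miR-146b, and none of the 3 for miR-146a did. With the total gene signal none of the 3 nearest to miR-155 or miR-146b was the same, and for miR-146a only miR-125a-5p was (0.91).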

How the data were processed

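Per the labels, total RNA was labelled with Cy3 for Agilent 1-colour miRNA arrays, read with Agilent Feature Extraction 10.7.1.1 per the submitters' processing notes. Per the file headers, the deposited spot values are intensity in arbitrary units, background-subtracted and not scaled between arrays. The values of the deposited table were, on a log2 scale, equal to the total gene signal, with blanks where a miRNA was not detected.

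Signals of a miRNA's probes, each the mean over spots not flagged as outliers, were summed, scaled, floored and put on a log2 scale as described above. Well above background means that 50 percent or more of a probe's used spots had the software's flag for it, and that 1 or more probes of the miRNA did so. The 145 mouse miRNAs that met this on both arrays of some group were fitted with limma 3.58.1 in R 4.3.3 (6 group means, eBayes, 6 residual degrees of freedom, prior 1.23) for 9 comparisons. The fit was tested on simulated data with independent normal noise, the same SD in all groups for each miRNA, and no floor. These arrays differ on each of these points, so that test does not give the error rate of the calls here. The mean spot signal is not among the columns used here, so normexp (offset 50) ran on median signals and median local backgrounds. Precision is limited by the number of arrays.

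The members and lists were chosen with earlier results of these data known. Named are the members, the 3 miRNAs most like each over 12 arrays and, per comparison, up to 3 listed miRNAs in each direction, taking the largest called differences without overlap between groups, or, with fewer than 2 calls, the 2 smallest p-values. Replicate numbers share a scan date within treatment: same-numbered deviations correlated at 0.633 to 0.952 between tunicamycin groups and 0.738 between untreated groups, but at -0.515 to -0.225 across, so they were not used as pairs. Alternatives covered background, summary, scaling, floor, filter, groups fitted, blocks and leaving out each array. Keeping outlier spots and summing the authors' probe totals were added after seeing the data.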

Additional observations from a re-analysis of the deposited data

Results flagged for a closer look

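The response of miR-146b to tunicamycin differed between KO and WT cells by limma's interaction term, which drew attention to it at both times: the KO response minus the WT response was 4.08 ± 0.64 (log2, standard error) at 12 h and 3.09 ± 0.64 at 24 h. miR-146b was chosen for its decrease in tunicamycin-treated WT cells on these arrays, which is contained in that term, so the call is no independent test. Both rest on untreated levels of 3.16 and 2.76 percent in KO and 10.8 and 9.80 percent in WT, and on WT tunicamycin arrays at the floor, so their size depends on where the floor is set. After normexp they were -0.18 at 12 h and -1.15 at 24 h. Groups of 2 arrays are too small for a check of outlying arrays.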

How the results depend on the processing

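With each replicate number as a replicate block, calls of all tested miRNAs were 43, 39 and 22 for KO against WT without tunicamycin, at 12 h and at 24 h (38, 35 and 21 without it), 42 and 24 for 12 h and 24 h in WT (39 and 18), 2 and 3 in KO (1 and 1), and 25 and 14 for the difference of the responses (26 and 9). In this same order of 9 comparisons, calls were 0 throughout after normexp. Without spots of outlying local background, normexp gave 16, 2, 0, 2, 0, 0, 11, 0 and 0. The total gene signal gave 6, 9, 6, 3, 3, 1, 5, 3 and 3, the deposited values 10, 8, 7, 3, 21, 1, 13, 2 and 4, median scaling 8, 24, 5, 4, 4, 1, 1, 6 and 5, and quantile normalization 2, 0, 0, 1, 1, 0, 1, 0 and 0. Scaling by the 75th percentile of every mouse miRNA gave 4 and then 0 in the other 8, no scaling 22, 13, 8, 31, 66, 16, 56, 4 and 5, no filter 17, 13, 5, 24, 18, 1, 1, 13 and 7, and fits of the compared groups alone 102, 15, 0, 29, 44, 0, 0, 49 and 8. The brightest probe gave 0 and 3 in KO cells, a floor 2 times as high 3 at 24 h and one 0.5 times as high 2 at both times. The scan date gave 13 calls as a fixed block at 24 h in KO against WT and 18 as a random block for the 24 h difference of the responses. Leaving out 1 array gave 9 to 68, 12 to 49, 7 to 45, 12 to 59, 7 to 46, 1 to 10, 1 to 44, 7 to 47 and 6 to 29 calls, highest without a KO array at 24 h for each comparison.

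The log2 differences of the members with blocks, with no filter and in fits of the compared groups alone were those reported. Of 798 member values over all alternatives, 633 moved by less than 1 SD, 155 by more and 10 changed the sign of a called value. Many of the 633 could not move, so their number is no measure of stability. They include the values with blocks, with no filter, in fits of the compared groups alone, and without an array of a group not compared. For miR-155 in KO against WT, without tunicamycin, at 12 h and at 24 h, normexp gave 0.12, -0.61 and -0.86, and without spots of outlying local background -1.09, -0.57 and -0.53; the total gene signal gave -1.55, -0.32 and 0.83, the deposited table -1.21, -0.39 and 0.89, and scaling by every mouse miRNA -2.12, -2.75 and -2.53. In untreated cells median scaling gave -2.36, no scaling -2.28 and quantile normalization -2.27. For miR-146b in untreated KO against WT these were 0.54 after normexp, -0.68 without outlying spots, -0.23 with the total gene signal, 0.12 in the deposited table, -1.24 when scaled by every mouse miRNA, -1.18 with quantile normalization and -0.80 with outlier spots kept, which were 2 spots of 1 KO array. At 12 h they were 0.36, 0.47, 4.23 and 4.10 in the first 4 of these, 1.27 at 2 times and 3.28 at 0.5 times the floor or with summed probe totals. For miR-146b in WT at 12 h and 24 h they were -0.37 and 0.69, -0.47 and 0.000605, -4.55 at both times, and -4.70 at both, with -1.72 at 2 times and -3.72 at 0.5 times the floor or with summed probe totals. For miR-146a in untreated KO against WT they were 0.0071, -1.32, -4.81 and -4.97, and in WT at 12 h -0.77, -0.87, -4.81 and -4.97. The response differences of miR-146b after normexp were -0.18 and -1.15. Without spots of outlying local background, normexp no longer turned the 3 members in untreated KO against WT. The floor sets every value against a group at background. Causes of the other changes were not tested. Leaving out 1 array gave -2.74 to -2.63, -2.70 to -2.16 and -2.36 to -1.70 for miR-155, -1.90 to -1.70 and 2.05 to 2.50 for miR-146b in KO against WT without tunicamycin and at 12 h, -2.79 to -2.65 in WT at both times, and -3.83 to -3.74 for miR-146a in both comparisons.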
